A study of Mus musculus with 32 samples.

Results

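The IGF ligands, receptors and binding proteins were followed through 8 groups of mouse liver and tumor samples. The members were 10 of the 34821 gene names on the array, namely the ligands *Igf1* and *Igf2*, the receptors *Igf1r* and *Igf2r*, and the binding proteins *Igfbp1* to *Igfbp6*. They were found by the gene name that the array files give each probe, which returned 16 of the 55681 probes on the array. Of these 16 probes, 13 had a signal well above background in every sample of 1 group or more, and these covered 8 of the 10 genes. The probes of *Igf2* and *Igfbp5* were not well above background in any of the 32 channels.

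The mRNA came from young male Balb/c mice that received C26 colon carcinoma cells or saline (PBS) into the spleen, and from colorectal tumor cells. Endothelial, Ito and Kupffer cells were isolated from the livers of control mice (EC, IC and KC) and from livers colonized by tumor (ET, IT and KT, the tumor microenvironment or TME groups), and were kept in short culture before the RNA was extracted. The tumor groups were the primary tumor (TP) and the liver metastasis (TM), and the methods do not state how the cells of these groups were collected. Each group had 4 samples, described as biological replicates. The 32 samples lay on 16 arrays of 2 colors, with control and TM samples in Cy3 and TME and TP samples in Cy5 on every array. Each array paired a control with the TME sample that had its cell type and number, or a TM with a TP sample, so dye and condition cannot be told apart. Slide 1 held the arrays of endothelial and Ito cells and slide 2 those of Kupffer and tumor cells, so slide and cell type cannot be told apart when Kupffer cells are set against endothelial or Ito cells. The tumor groups were therefore compared with the Kupffer group of the same slide and dye.

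The IGF system carries growth signals between cells. IGF1 and IGF2 are secreted peptides related to insulin that activate the tyrosine kinase IGF1R, while IGF2R, the cation-independent mannose 6-phosphate receptor, takes up IGF2 and delivers lysosomal enzymes without kinase signaling. The binding proteins hold the ligands in blood and tissue, extend their lifetime and limit or deliver them to the receptors. The liver is the main source of circulating IGF1, hepatocytes secrete IGFBP1 under control of insulin and glucocorticoids, IGFBP3 of the liver comes mainly from its non-parenchymal cells, and IGFBP6 prefers IGF2 over IGF1.

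The probes are 60-base oligonucleotides, and parts of some on which the results rest are shown because the probes of 1 gene did not always report the same pattern. The first 2 of the *Igf1* stretches belong to overlapping probes (mm9, chr10:87393561-87393620 and chr10:87393581-87393640) that share 40 bases, and capitals mark bases that both probes cover. The third *Igf1* stretch belongs to a probe for another transcript of the gene (mm9, chr10:87378456-87378515). The *Igfbp6* probe lies at chr15:101979852-101979911, and the *Igfbp2* probes at chr1:72898813-72898872 and chr1:72898677-72898736, all in mm9. The last sequence is the whole second *Igfbp2* probe.
Igf1 A_55_P2085984, bases 11 to 40: aacaataataAGTCCAATAACATTACAAAG
Igf1 A_55_P2031631, bases 21 to 50: ATGGGCATTTCCCCCAATGAaatatacaag
Igf1 A_55_P2085979, bases 16 to 45: gccaccaagaccttccctccccttcttaaa
Igfbp6 A_66_P139546, bases 16 to 45: ctttacacagctagttagaaagattgctgt
Igfbp2 A_66_P135391, bases 16 to 45: tgacacatgtatttatatttggaaagagac
Igfbp2 A_55_P2056729, bases 1 to 60: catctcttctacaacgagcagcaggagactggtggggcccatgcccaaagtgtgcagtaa

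Levels are log2 of the deposited normalized intensity, and a level of 1 probe is not compared with that of another. For each gene with several probes, the lead probe was the one with the highest variance among those well above background. A gene was called when the limma adjusted p of its lead probe was under 0.05 in a single fit of all 32 channels, adjusted over all 55681 probes. Between 38.4 and 57.1% of spots were well above background per channel and no spot was saturated. On the fourth Ito array and the fourth Kupffer array the difference between TME and control ran opposite to that of the other arrays of the cell type, with r = -0.66 and -0.60 over 17105 probes well above background in all channels, against 0.19 to 0.28 for the other Ito arrays and 0.41 to 0.47 for the other Kupffer arrays. For TP minus TM it was -0.20 on tumor array 1 and -0.065 on array 4, against 0.64 on the others. Whether samples or dyes were exchanged on the fourth Ito and Kupffer arrays was not tested, and an exchange would change what the IC, IT, KC and KT means stand for. Control Kupffer replicate 3 lay apart from its group in *Igf2r* and *Igfbp3*, and TME Ito replicate 2 held the lowest *Igf2r* and the highest *Igfbp3* level of its group, at 8.41 and 8.13. Some of the results that rest on these channels are given with and without them.

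The labelled cell types were checked against their markers. Of 8 endothelial markers, 3 were called higher in EC than in IC and none lower, and of 8 Kupffer markers 5 were called higher in KC than in EC but none in KC than in IC. Of 8 Ito markers, however, none was called higher in IC than in EC and 1 was called lower, so these markers did not set the Ito group apart. The 8 hepatocyte markers, among them *Alb*, were well above background in all 24 liver channels, and 7 of them were called higher in IC than in EC. In TM and TP, 6 of the 8 hepatocyte markers were not well above background in any channel. *Krt20*, a colonic keratin, had a mean level of 11.94 in TM and 11.45 in TP. It was not well above background in EC, IC, KC or KT. Of 6 epithelial markers, however, 2 were called higher and 1 lower in TM than in KC, and likewise in TP against KT. *Epcam* and *Cdh1* were not well above background in any tumor channel. *Krt8* had means of 5.12 in TM and 6.68 in TP, against 10.72 in EC and 10.26 in IC. The epithelial list as a whole thus did not set the tumor groups apart. Fewer cells of a type and less RNA per cell cannot be told apart in such bulk samples.

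**Figure D1:**
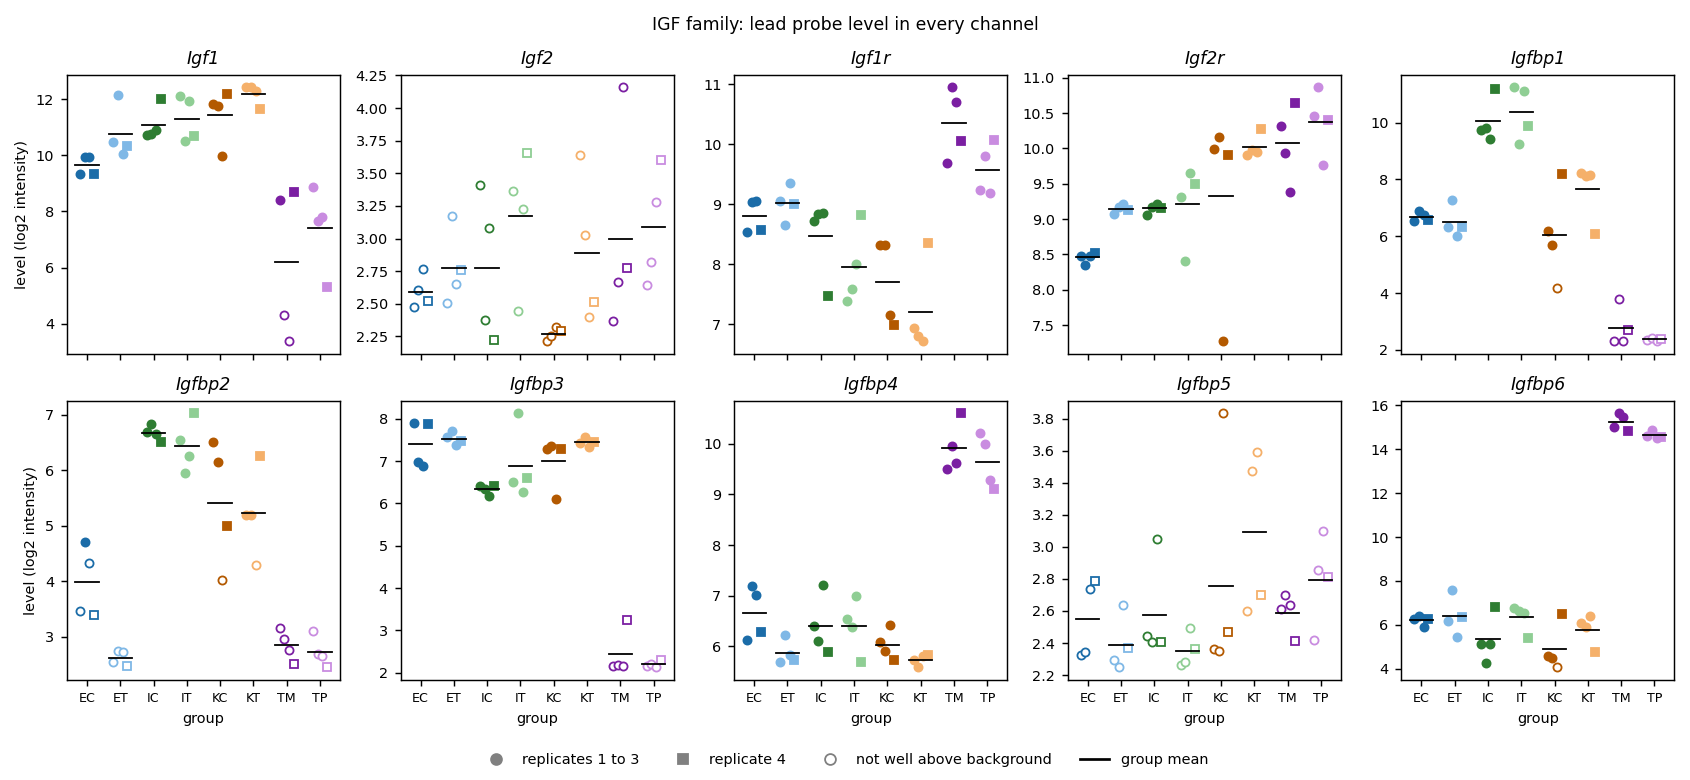
Level (log2 intensity) of the lead probe of each of the 10 genes by group, 1 point per channel, with replicate 4 as squares, open points for channels not well above background and a line at the group mean. *Igfbp6* lies between 14.5 and 15.6 in the tumor channels and between 4.08 and 7.58 in the liver channels, while *Igf2* and *Igfbp5* have only open points.

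The tumor groups differed from the Kupffer groups in 7 of the 10 genes. In both TM against KC and TP against KT, *Igf1r*, *Igfbp4* and *Igfbp6* were higher and *Igf1*, *Igfbp1*, *Igfbp2* and *Igfbp3* were lower. Over all probes, 39.4% were called between TM and KC and 43.6% between TP and KT. In TM 23.3% were called higher and 16.2% lower, and in TP 25.7 and 17.8%. The shares called were 64.1 and 67.6% among the 29017 probes that were well above background on all 4 arrays of a group. The median difference of the 10 genes was 0.28 between TM and KC and -0.05 between TP and KT, against 0.08 and 0.10 over all probes. The middle values behind these medians were those of *Igf2* and *Igfbp5*, which were not well above background. All 7 genes also had a limma adjusted p under 0.001 and at least a 4-fold difference in both comparisons. Of all probes, 14.3 and 15.9% did. For *Igfbp1*, *Igfbp2* and *Igfbp3* this fold rests on tumor signals that were not well above background, and only bounds are given below.

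*Igfbp6*, the binding protein with a preference for IGF2, showed the widest separation. Its level was 15.03, 15.65, 15.46 and 14.84 in the 4 TM channels and 14.59, 14.88, 14.53 and 14.56 in the 4 TP channels. In KC it was 4.58, 4.47, 4.08 and 6.49, the third not well above background, and in KT it was 6.07, 5.90, 6.41 and 4.76. The tumor channels all lay far above the liver channels and varied little among themselves. The difference was 10.34 ± 0.50 (SE, n = 4 and 4) on the log2 scale for TM against KC (limma adjusted p = 1.9e-15), a fold of 1297, and 8.86 ± 0.50 for TP against KT (limma adjusted p = 3.8e-14), a fold of 463. The size depended on the processing, with 8.55 to 11 for TM and 7.61 to 9.15 for TP over 15 settings, the highest TM value coming without replicate 4 and the lowest of both with normexp background correction. Endothelial and Ito channels, on the other slide, held between 4.25 and 7.58.

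*Igfbp4*, which binds both ligands and is cut by the protease PAPP-A, was also higher in the tumor groups. Its level was 9.49, 9.95, 9.62 and 10.61 in TM and 10.21, 9.99, 9.28 and 9.11 in TP, against 6.08, 5.91, 6.43 and 5.72 in KC and 5.73, 5.59, 5.80 and 5.82 in KT. No tumor channel overlapped a liver channel, since the highest liver value was 7.21. The difference was 3.88 ± 0.31 (SE) for TM against KC and 3.91 ± 0.31 for TP against KT, folds of 14.8 and 15.1 (limma adjusted p = 4.4e-11 and 3.3e-11).

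*Igf1r*, the signaling receptor, held levels of 9.69, 10.95, 10.702 and 10.05 in TM and 9.23, 9.80, 9.20 and 10.06 in TP. In KC the levels were 8.32, 8.32, 7.16 and 6.99, and in KT they were 6.95, 6.80, 6.73 and 8.35, the last from array 4. The groups did not overlap, and the difference was 2.65 ± 0.40 (SE) for TM against KC and 2.37 ± 0.40 for TP against KT, folds of 6.27 and 5.15 (limma adjusted p = 2.9e-06 and 1.4e-05). Among the liver groups *Igf1r* was highest in endothelial cells, and the lowest TP value, 9.20, lay under the highest TME endothelial value of 9.36.

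*Igf2r*, measured by 1 probe in 10 spots, was not called in either tumor comparison. Its levels ran from 9.38 to 10.64 in TM and from 9.76 to 10.87 in TP, against 9.90 to 10.16 in the KC channels other than replicate 3, which held 7.28, and 9.90 to 10.27 in KT. The difference of TP from KT was 0.35 with a 95% interval from -0.48 to 1.18. That of TM from KC, with replicate 3 kept, was 0.74 with an interval from -0.09 to 1.57. A value without that channel is not given.

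*Igf1* was lower in the tumor groups by its lead probe, and the TM channels disagreed with each other. The level was 8.39 and 8.70 in TM replicates 1 and 4 but 4.31 and 3.39 in replicates 2 and 3, both not well above background. TP held 8.85, 7.65, 7.79 and 5.32, all well above background. KC held 11.84, 11.77, 9.98 and 12.19 and KT held 12.41, 12.42, 12.27 and 11.65, above every tumor channel. The difference was -5.25 ± 0.87 (SE) for TM against KC and -4.79 ± 0.87 for TP against KT (limma adjusted p = 1.3e-05 and 4.1e-05). The value for TM averages 2 measured channels with 2 that were not well above background, and it ran from -5.85 without replicate 1 to -3.90 with normexp, loess and Aquantile, so no fold is given for it. TP was 27.6-fold lower.

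The 5 *Igf1* probes did not report 1 pattern. The overlapping probe A_55_P2031631 followed the lead probe, with differences of -5.03 ± 0.78 and -4.61 ± 0.78 (limma adjusted p = 4.7e-06 and 1.5e-05). The probe A_55_P2085974, farther along the same transcript, differed by -3.56 ± 0.81 in TM (limma adjusted p = 0.00068), and in TP, where it was not well above background, KT was at least 4.40-fold higher (limma adjusted p = 1.6e-05). The probe A_55_P2031636 was also not well above background in TP, where KT was at least 1.27-fold higher (limma adjusted p = 0.022), and was not called in TM (-1.31 ± 0.53, limma adjusted p = 0.052). The probe for the other transcript, A_55_P2085979, was well above background in all 32 channels at levels between 8.74 and 10.44. It was not called between tumor and Kupffer cells, with differences of 0.17 ± 0.17 for TM and 0.34 ± 0.17 for TP (limma adjusted p = 0.48 and 0.12). Thus the statement that *Igf1* was lower in the tumor groups holds for 3 of its 5 probes in TM and for 4 of 5 in TP.

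**Figure D2:**
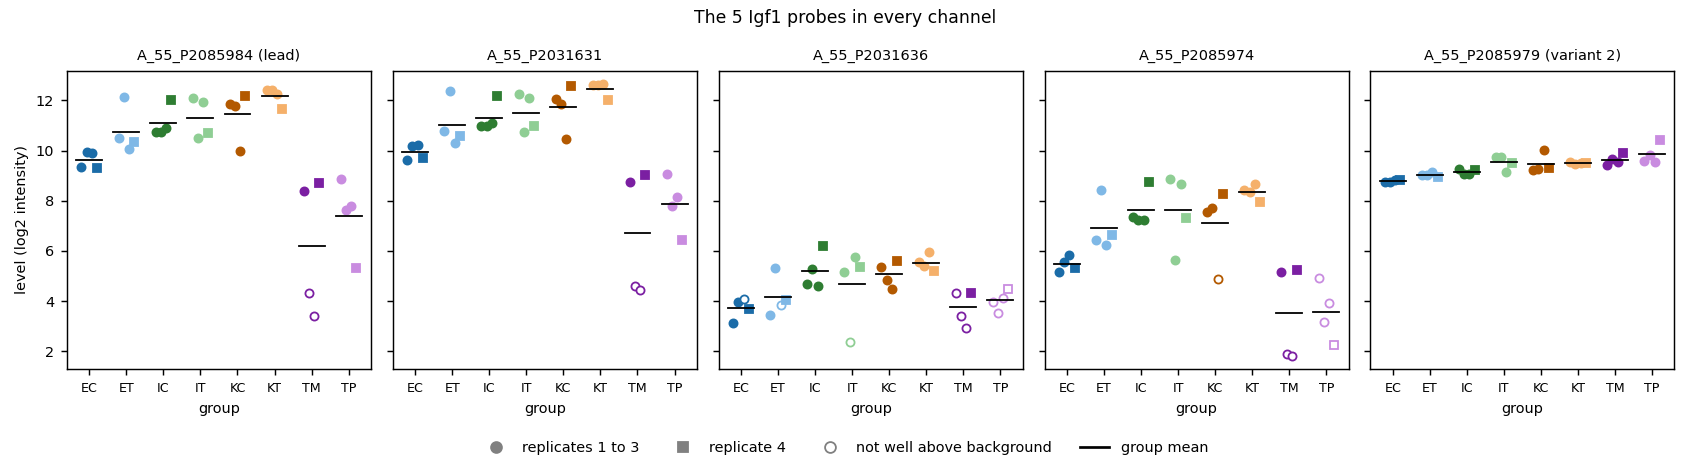
Level (log2 intensity) of the 5 *Igf1* probes by group, 1 point per channel, with replicate 4 as squares and open points not well above background. By group means the first 4 probes are lower in TM and TP than in KC and KT, although the third did not pass the test in TM, while A_55_P2085979 stays between 8.74 and 10.44 in all groups.

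*Igfbp1*, *Igfbp2* and *Igfbp3* were not well above background in any of the 8 tumor channels by their lead probes. Only a lower limit of the fold can then be given, taken after loess and Aquantile normalization as the Kupffer mean against the dimmest signal that counts as well above background on each tumor array, or the probe's own signal where that was higher. These limits compare single color channels with no balanced dye swap. *Igfbp3*, the main carrier of IGF1 in serum, held 7.29, 7.36, 6.11 and 7.28 in KC and 7.44, 7.56, 7.34 and 7.44 in KT, and was at least 2.59-fold higher in KC than in TM and at least 2.78-fold higher in KT than in TP (limma adjusted p = 3.5e-12 and 2.0e-13). *Igfbp1* was at least 1.95-fold higher in KC than in TM, with 3 of 4 KC channels well above background, and at least 2.91-fold higher in KT than in TP (limma adjusted p = 5.3e-05 and 2.9e-08). *Igfbp2*, which also binds both ligands, was at least 1.34-fold higher in KC and at least 1.14-fold higher in KT (limma adjusted p = 6.2e-06 and 8.2e-06), each with 3 of 4 Kupffer channels well above background.

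A second *Igfbp3* probe, assigned to another transcript, was not well above background in 30 of 32 channels. The exceptions were TM replicate 1 at 5.97 and TP replicate 1 at 5.55, the samples that shared 1 array. Several marker lists moved in the same direction as *Igf1*, *Igfbp1*, *Igfbp2* and *Igfbp3* in these comparisons. All 8 hepatocyte markers and all 8 Kupffer markers were lower in TM than in KC, and 7 and 8 were lower in TP than in KT. All 8 endothelial and all 3 erythroid markers were also lower in both comparisons. The Ito and epithelial lists had markers called in both directions. The part of these cell types in the differences was not tested.

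**Figure D3:**
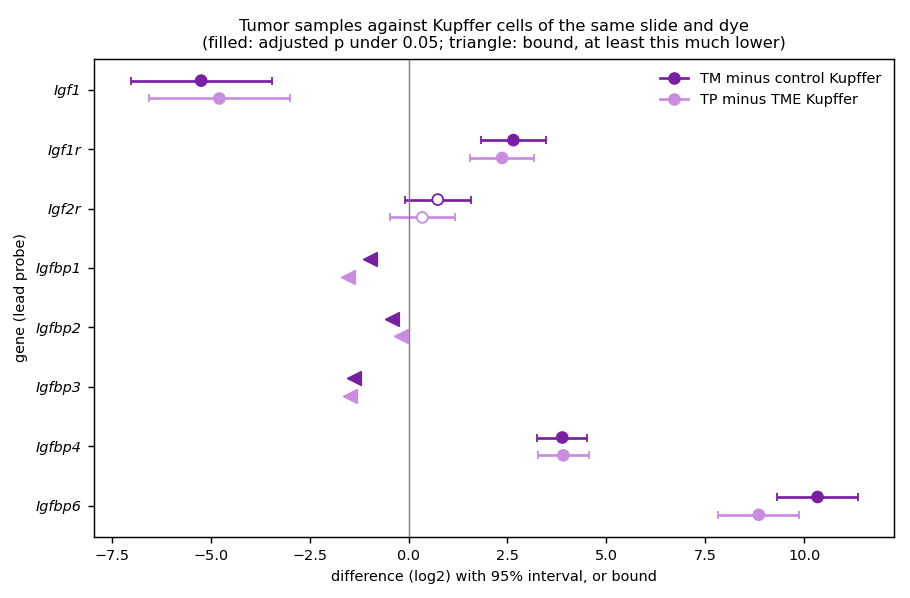
Difference (log2) between tumor and Kupffer groups of the same slide and dye for the lead probe of 8 genes, with bars for the 95% interval and filled circles for an adjusted p under 0.05, while triangles give the least by which a gene that was not well above background in the tumor group was lower. The 7 genes called have the same direction in both comparisons, and *Igfbp6* in TM lies farthest from 0, at 10.34.

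None of the 10 genes was called between TP and TM, where 3.01% of all probes were. The sizes of the differences, TP minus TM, reached 1.20 for *Igf1*, with a 95% interval from -0.58 to 2.99, and -0.78 for *Igf1r*, with an interval from -1.59 to 0.04. At an unadjusted p under 0.05 the count was also 0. On the single arrays *Igf1* differed by 0.46, 3.34, 4.40 and, on array 4, -3.38. Without replicate 4 the difference was 2.73 ± 0.90 for *Igf1* and -1.04 ± 0.33 for *Igf1r* (unadjusted p of the limma fit = 0.0073 and 0.0052, adjusted p = 0.11 and 0.092), and the count at an unadjusted p under 0.05 was 2. The intervals reached beyond a 2-fold difference for *Igf1*, *Igf1r*, *Igf2r*, *Igfbp1* and *Igfbp6*.

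Among the control liver cells, *Igfbp1* and *Igfbp2* separated the Ito fraction from the endothelial fraction on the same slide and dye. *Igfbp1* held 9.75, 9.81, 9.44 and 11.18 in IC, against 6.55, 6.90, 6.73 and 6.59 in EC. All IC channels lay above all EC channels, and the difference was 3.35 ± 0.60 lower in EC (limma adjusted p = 0.00040), a fold of 10.2. *Igfbp2* held 6.68, 6.83, 6.65 and 6.51 in IC and 3.47, 4.71, 4.33 and 3.40 in EC, where only the second was well above background. The difference was 2.69 ± 0.40 lower in EC (limma adjusted p = 5.1e-05), and the second *Igfbp2* probe, which was well above background in all 8 channels, gave 2.08 ± 0.44 lower (limma adjusted p = 0.0025). *Igfbp3* was the third gene called, 1.08 ± 0.32 higher in EC (limma adjusted p = 0.031), with 7.89, 6.97, 6.89 and 7.88 in EC and 6.18 to 6.42 in IC. Over all probes 9.89% were called in this comparison.

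The TME cells gave the same order for both genes. *Igfbp1* held 11.24, 9.25, 11.12 and 9.89 in IT and 6.33, 7.29, 6.005 and 6.33 in ET, a difference of 3.89 ± 0.60 lower in ET (limma adjusted p = 8.8e-05). *Igfbp2* held 6.55, 5.94, 6.25 and 7.02 in IT and was not well above background in any ET channel, so that IT was at least 1.90-fold higher (limma adjusted p = 4.7e-07). These 2 genes were the only members called between ET and IT, where 8.26% of all probes were called. *Igfbp3* was not called there, with 7.37 to 7.72 in ET and 6.27 to 6.61 in IT apart from replicate 2 at 8.13.

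Hepatocyte markers were higher in the Ito than in the endothelial fractions, as *Igfbp1* and *Igfbp2* were. The summed level of the 8 markers, on the log2 scale, ran from 16.6 to 18.5 in IC and from 16.4 to 18.3 in IT, against 14.2 to 14.3 in EC, 13.3 to 14.4 in ET, 13.2 to 15.5 in KC and 14.99 to 15.49 in KT. All 8 markers were well above background on all arrays of these groups, and 7 of them were lower in EC than in IC and 8 lower in ET than in IT. The erythroid markers showed the same order, with 3 of 3 lower in EC than in IC and in ET than in IT. Within the Ito fractions, the channels with the highest marker sums, IC replicate 4 and IT replicates 1 and 3 at 18.3 to 18.5, were also those with *Igfbp1* between 11.12 and 11.24. *Igfbp2* did not show this step and held 6.25 to 6.55 in the same 3 channels. Between Kupffer and endothelial cells *Igfbp1* did not follow the marker sum throughout. KC replicates 1 and 2 had sums of 15.53 with *Igfbp1* at 6.19 and 5.69, under the 6.55 to 6.90 of EC. KC replicates 3 and 4 had sums of 13.23 and 15.05 with *Igfbp1* at 4.16 and 8.18. The part of hepatocyte RNA in the *Igfbp1* and *Igfbp2* differences was not tested.

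**Figure D4:**
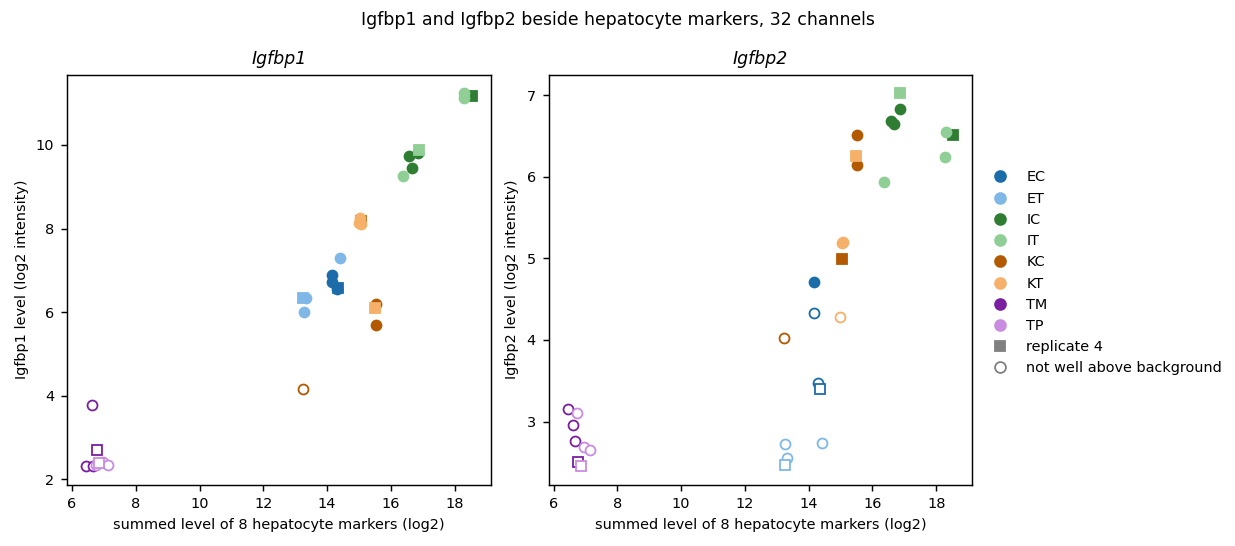
Level (log2 intensity) of *Igfbp1* (left) and *Igfbp2* (right) against the summed level of 8 hepatocyte markers (log2) in 32 channels, colored by group, with replicate 4 as squares and open points not well above background. The Ito channels lie at marker sums of 16.4 or more and lie above all others in *Igfbp1*, while in *Igfbp2* Kupffer channels reach 6.51, and the tumor channels lie at sums of 7.13 or less.

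The Kupffer fraction differed from Ito cells in *Igfbp1* and *Igfbp2* and from endothelial cells in *Igfbp2* and *Igf1r*, with slide and cell type not told apart. *Igfbp1* was 3.99 ± 0.60 lower in KC than in IC and 2.73 ± 0.60 lower in KT than in IT (limma adjusted p = 4.0e-05 and 0.0022). *Igfbp2* was 1.25 ± 0.40 lower in KC than in IC and 1.21 ± 0.40 lower in KT than in IT (limma adjusted p = 0.035 and 0.042), but 1.44 ± 0.40 higher in KC than in EC (limma adjusted p = 0.010). In KT it was at least 1.41-fold higher than in ET (limma adjusted p = 2.4e-05), and there the second *Igfbp2* probe was 1.79 ± 0.44 higher (limma adjusted p = 0.0037). Without control Kupffer replicate 3 and TME Ito replicate 2 the *Igfbp2* difference between KC and IC was -0.79 (limma adjusted p = 0.16) and that of *Igf1r* between KC and EC was -0.92 (limma adjusted p = 0.14). The second *Igfbp2* probe was not called between KC and EC, KC and IC or KT and IT (limma adjusted p = 0.15, 0.092 and 0.20). *Igf1r* was 1.10 ± 0.40 lower in KC than in EC and 1.81 ± 0.40 lower in KT than in ET (limma adjusted p = 0.048 and 0.0012). Of all probes, 21% were called between KC and EC, 14.8% between KC and IC, 21.8% between KT and ET and 15.2% between KT and IT. The 2 genes called in each of these comparisons were thus close to the share of all probes.

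Read as an order within the Cy3 channels, *Igf1* was highest in KC and IC, whose ranges overlapped, followed by EC and then TM without overlap. Within the Cy5 channels the order was KT, IT and ET, each overlapping the next, and then TP. *Igf2r* followed TM, KC, IC and EC in Cy3 and TP, KT, IT and ET in Cy5, where only IC and EC, and KT and IT, did not overlap as neighbors. The *Igf2r* range in EC, 8.35 to 8.52, and in ET, 9.07 to 9.21, was narrow. *Igfbp4* overlapped between all neighboring liver groups of either dye.

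The TME was set against control in each cell type to ask whether the colonized liver changed the family. None of the 10 genes was called in endothelial, Ito or Kupffer cells by limma, where 1.14, 0.289 and 0.436% of all probes were called. At an unadjusted p under 0.05 the counts were 2, 0 and 1. By the methods' t-test, adjusted over all probes, the count was 1 in endothelial cells and 0 in the others.

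In endothelial cells, 3 of the 10 genes did not overlap between the groups, against 13% of all probes. *Igf2r* held 8.48, 8.35, 8.48 and 8.52 in EC and 9.07, 9.17, 9.21 and 9.13 in ET, a difference of 0.68 with a 95% interval from -0.14 to 1.51 in the fit of all groups (limma adjusted p = 0.85). With only these 2 groups in the fit the same difference was called (limma adjusted p = 0.0018), as it was in the methods' t-test adjusted over all probes. The SE of the difference was 0.40 in the fit of all groups and 0.066 with these 2 groups only. Without control Kupffer replicate 3 and TME Ito replicate 2, the channels with the lowest *Igf2r* levels of their groups, it was 0.20 (limma adjusted p = 0.076). *Igfbp2* was well above background in 1 of 4 EC channels and in no ET channel, so that only a bound can be given (at least 1.12-fold higher in EC, limma adjusted p = 0.13). *Igf1* held 9.35, 9.95, 9.92 and 9.32 in EC and 10.49, 12.13, 10.06 and 10.35 in ET, a difference of 1.12 with an interval from -0.66 to 2.90. *Igfbp4* was 0.79 lower in ET (limma adjusted p = 0.39), and its ranges overlapped.

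No gene in Ito cells, and 1 gene in Kupffer cells, had control and TME values that did not overlap, against 8.92 and 7.06% of all probes. That gene was *Igf2*, which was not well above background. For 3 other genes the result in 1 or both cell types turned on array 4. *Igfbp6* held 5.13, 4.25 and 5.12 in IC replicates 1 to 3 and 6.76, 6.62 and 6.56 in IT replicates 1 to 3, but 6.83 in IC replicate 4 and 5.42 in IT replicate 4. In Kupffer cells it held 4.58, 4.47 and 4.08 in KC replicates 1 to 3 and 6.07, 5.90 and 6.41 in KT, but 6.49 and 4.76 in replicate 4. TME minus control was thus positive on 3 arrays and negative on array 4 in both cell types. Over all 4 arrays the difference was 1.01 in Ito cells, with a 95% interval from -0.02 to 2.03, and 0.88 in Kupffer cells, with an interval from -0.14 to 1.90 (limma adjusted p = 0.51 and 0.75). Without replicate 4 it was 1.81 ± 0.37 and 1.75 ± 0.37, and both were called (limma adjusted p = 0.0057 and 0.014).

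*Igf1r* also changed sign on array 4 in both cell types, and *Igfbp1* did so in Kupffer cells. The same change of sign was seen for *Igf1* and *Igfbp4* in Kupffer cells and *Igfbp2* in Ito cells. On array 4 their TME minus control was -0.54, 0.097 and 0.51. These differences were not called without replicate 4 (limma adjusted p = 0.63, 0.59 and 0.67). *Igf1r* fell from control to TME by 1.33, 1.26 and 0.86 on Ito arrays 1 to 3 and by 1.38, 1.52 and 0.43 on Kupffer arrays 1 to 3, and was higher in TME by 1.34 and 1.36 on array 4. Without replicate 4 the difference was -1.15 ± 0.33 in Ito cells (limma adjusted p = 0.037) and -1.11 ± 0.33 in Kupffer cells (limma adjusted p = 0.069). *Igfbp1* held 6.19, 5.69 and 4.16 in KC replicates 1 to 3, the third not well above background, and 8.24, 8.10 and 8.14 in KT, with 8.18 and 6.09 in replicate 4. Its difference was 1.59 ± 0.60 over all arrays (limma adjusted p = 0.48) and 2.82 ± 0.52 without replicate 4 (limma adjusted p = 0.0064). The hepatocyte marker sum was 15.5, 15.5 and 13.2 in KC replicates 1 to 3 and 15.04, 15.07 and 14.99 in KT. From KC to KT the sum was thus lower on arrays 1 and 2 and higher on array 3, while *Igfbp1* was higher on all 3, and the part of hepatocyte RNA was not tested. Without replicate 4, the share of all probes called was 7.83% for Ito cells and 3.45% for Kupffer cells, and 2 of the 10 genes were called in each. Leaving out only the Ito and Kupffer arrays of replicate 4 also gave 2 genes in each. The opposite differences of these arrays were known when they were left out. The p-values without them, here and for *Igfbp6*, are thus a description. The labels put replicate 4 in the same groups as the others and no label was changed.

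**Figure D5:**
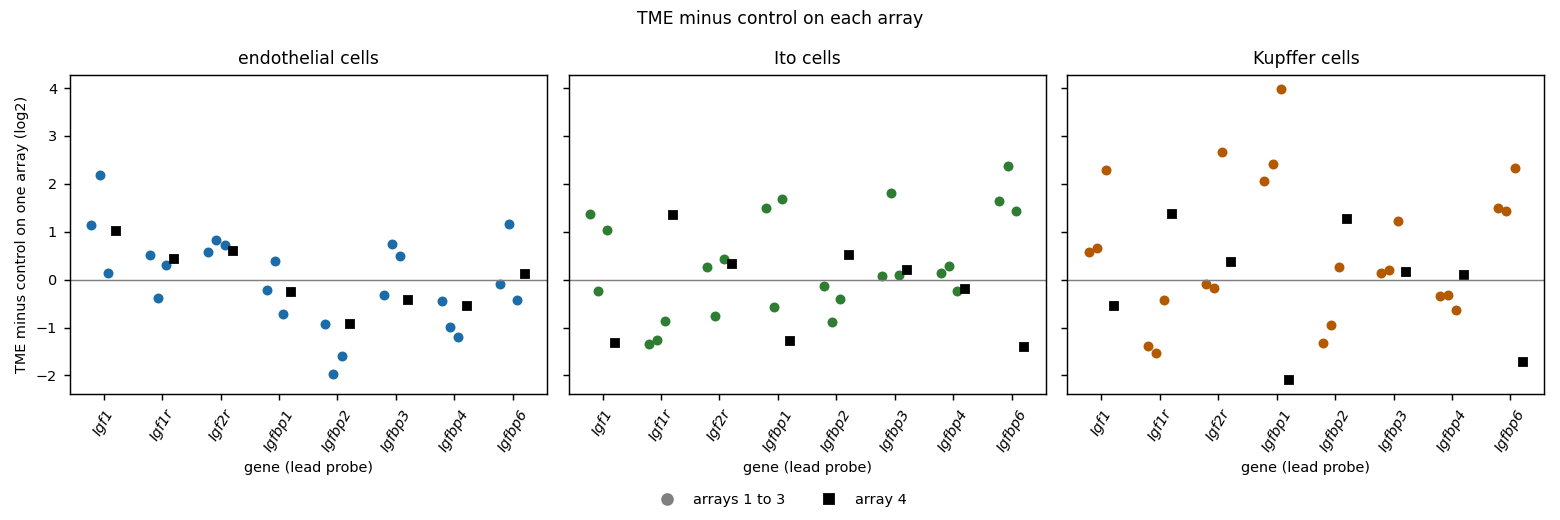
Difference between TME and control on each array (log2) for the 8 genes with a probe well above background, with array 4 as black squares. On Ito and Kupffer arrays 1 to 3 *Igfbp6* is positive and *Igf1r* negative, on array 4 both have the opposite sign, and the endothelial array 4 lies among the others.

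The change from control to TME was not shown to differ between cell types for any of the 10 genes (smallest limma adjusted p = 0.995 over 3 tests of the difference). At an unadjusted p under 0.05, 1 gene passed in the test of Kupffer against endothelial cells and none in the other tests. With the Ito and Kupffer arrays of replicate 4 left out, the change of *Igfbp1* was 3.02 ± 0.63 (SE) higher in Kupffer than in endothelial cells (limma adjusted p = 0.033), the only member called.

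The 40 other genes of the pathway that were listed, from the insulin receptor to the growth hormone axis, were measured in the same fit. Between TME and control, 2 of 40 were called higher in endothelial cells and none in Ito or Kupffer cells, and 1 was called higher in TP than in TM, where 0.578 and 2.05% of all probes were called higher in the first and the last comparison. *Stc1*, a stanniocalcin of a family that inhibits PAPP-A, rose from 7.78 to 8.91 in endothelial cells (1.13 ± 0.28, limma adjusted p = 0.041). *Igf2bp1*, an RNA-binding protein of *Igf2* and other mRNAs, rose from 6.13 to 7.52 (1.39 ± 0.31, limma adjusted p = 0.016). *Insrr*, an orphan receptor related to the insulin receptor, was well above background in all TP and no TM channels and was at least 1.57-fold higher in TP (limma adjusted p = 0.00060).

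Between tumor and Kupffer groups, 12 of the 40 genes were higher and 13 lower in TM. In TP, 14 were higher and 12 lower. Of all probes, 23.3 and 16.2% were called in these directions in TM, and 25.7 and 17.8% in TP. Among the 29017 probes that passed the background flag in every sample of a group, 64.1% were called in either direction in TM. In TP the share was 67.6%. Some of the 40 genes had no such probe, and an excess of pathway genes over measured probes was not tested. The following genes were chosen after their values were seen, for their place in the growth hormone axis that drives *Igf1* and in the signal of its receptor. *Ghr*, the growth hormone receptor, was 3.29 ± 0.32 higher in TM and 2.93 ± 0.32 higher in TP (limma adjusted p = 1.7e-09 and 1.2e-08). *Jak2*, the kinase bound to this receptor, was 2.85 ± 0.31 lower in both (limma adjusted p = 1.3e-08 and 1.2e-08), and *Socs2*, a feedback inhibitor of the axis, was 2.86 ± 0.37 and 3.23 ± 0.37 lower (limma adjusted p = 3.6e-07 and 3.9e-08). *Irs1*, a docking protein for the insulin and IGF1 receptors, was not well above background in any Kupffer channel and was at least 13.9-fold higher in TM and at least 13.8-fold higher in TP (limma adjusted p = 6.5e-13 and 1.7e-12).

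The genes most like each member were taken by Pearson's r over the 32 channels among 17759 to 17764 probes of other named genes. These values are a description, since channels of a group and of an array are not independent and the gap between liver and tumor dominates them. *Igf1* was most like *Smpdl3a*, *Ms4a7* and *Tyrobp* (r = 0.986, 0.985 and 0.984). *Igfbp1* was most like *Apcs*, *Orm1* and *Hmox1* (r = 0.965, 0.958 and 0.957), and *Igfbp2* was most like *Pigr*, *C9* and *Slc22a7* (r = 0.965, 0.957 and 0.955). *Igfbp6* was most like *Cpe*, *Msln* and *Ctnnal1* (r = 0.991, 0.987 and 0.986), and *Igfbp4* was most like *Lgals7*, *Fgf10* and *Sema3b* (r = 0.963, 0.963 and 0.961). *Igfbp3* was most like *Nagpa*, *Chst2* and *Nod1* (r = 0.977, 0.977 and 0.976), *Igf1r* was most like *Dicer1*, *Rpl34-ps1* and *Mbtps1* (r = 0.950, 0.941 and 0.938), and *Igf2r* was most like *Gusb*, *Cpq* and *Sestd1* (r = 0.887, 0.846 and 0.844). For *Igf2* and *Igfbp5*, which were not well above background, the highest r was 0.644 and 0.647. Over the 24 liver channels alone, *Igf1* was most like *Ms4a7* (r = 0.979), *Igfbp6* was most like *Cpe* (r = 0.929), *Igfbp2* was most like *Cyp2f2* (r = 0.966) and *Igfbp1* was most like *Akr1b3* (r = 0.930). There *Igf1r* was most like *Lrrc58* (r = 0.945), *Igf2r* was most like *Tfg* (r = 0.932), *Igfbp3* was most like *Xdh* (r = 0.869) and *Igfbp4* was most like *Galnt14* (r = 0.732).

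Some members are neighbors in the genome. The lead probes of *Igfbp1* and *Igfbp3* lie 4092 bases apart on chromosome 11 and those of *Igfbp2* and *Igfbp5* lie 5956 bases apart on chromosome 1. *Igfbp1* and *Igfbp3* were both lower in the tumor groups than in Kupffer cells, while *Igfbp1* was lower and *Igfbp3* higher in EC than in IC. *Igfbp5* was not well above background where *Igfbp2* was.

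The 250 bases before the start of each gene were read from RefSeq (GRCm38.p6). The insulin response element CAAAACA, which FOXO factors bind and through which insulin represses *Igfbp1*, was searched on both strands and found in 5.56% of 32851 such windows. Among the members only the *Igfbp1* window (chr11:7197537-7197786, plus strand) held it, once, beginning 108 bases before the start. The window is shown because *Igfbp1* is the member with the widest range among the liver fractions, and capitals mark the element.
Igfbp1 promoter: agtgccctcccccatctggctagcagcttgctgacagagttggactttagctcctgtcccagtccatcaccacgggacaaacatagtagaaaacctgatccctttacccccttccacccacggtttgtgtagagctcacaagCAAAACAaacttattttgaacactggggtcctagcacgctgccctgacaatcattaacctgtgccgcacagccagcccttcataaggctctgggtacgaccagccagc
The letters GGGCGG of the GC box, found in 32.7% of windows, occurred in windows of *Igf1r*, *Igf2*, *Igf2r* and *Igfbp2*, and TATAAA, found in 12.4%, occurred in those of *Igfbp4* and *Igfbp6*. A match is a description of these letters and not of a bound site.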

How the data were processed

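Per the labels and methods, total RNA was labelled with Cy3 or Cy5 and hybridized to Agilent mouse arrays, read with Feature Extraction 10.7.3.1. The authors deposited the scanner intensities and, for each probe and sample, a linear intensity that had been quantile normalized (r of at least 0.99986 with scanner signals quantile normalized here). The log2 of the deposited table was used, and levels of different probes were not compared. A probe counted as well above background in a channel where at least 50% of its spots carried that flag. Groups came from the sample titles. All 32 channels were fitted to 8 groups with limma 3.58.1 (lmFit, eBayes) in R 4.3.3, with Benjamini-Hochberg adjustment over 55681 probes for each of 12 comparisons, and 3 differences of the TME change between cell types. The sequence of 1 probe is not reported here. Motifs were counted in RefSeq promoters, and all 10 genes had an entry. The members, gene lists and tests were chosen with earlier results of these data known. Named are all 10 genes with every probe, the pathway genes called between TME and control or TP and TM, and the 3 genes most like each member, besides *Ghr*, *Jak2*, *Socs2*, *Irs1* and the pathway genes named for the tumor groups against Kupffer cells, which were chosen after their values were seen. Alternatives were scanner values with other background corrections and scalings, a filter on dim probes, the array as a fixed or random block, a fit of the compared groups alone, the methods' t-test, the study's thresholds, another choice of probe, and samples left out. The other choice of probe, by highest variance whatever the signal, returned the same lead probes and so tested nothing. Samples with the same number shared an array, and their deviations from the group means correlated with r over 0.1 on 14 of 16 arrays over all probes, the exceptions being the fourth Ito and Kupffer arrays, but on 6 of 16 over the 17105 probes that every channel measured above background. Simulated data tested the fit: of 200 probes of 55681 changed in TME against control endothelial cells, 28% were recovered after a change of 1 on the log2 scale and 70% after a change of 2, with 4 and 8 false calls. The simulated channels had independent normal noise around a mean common to all groups. They lacked the correlation within arrays and the outlying channels of the real data, so these shares need not hold there.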

Additional observations from a re-analysis of the deposited data

Results flagged for a closer look

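In 11 of the 80 sets of 4 channels (10 genes in 8 groups) 1 channel stood far from the other 3. For a single set, chance gives this in about 1 in 20. The 10 genes share the same channels, so the sets are not independent and the count cannot be judged by that rate. Of the 11, 5 lay on the fourth Ito or Kupffer array. *Igf1* in IC replicate 4 was 12.02, against 10.72 to 10.90 in the other replicates, and *Igf1r* in the same channel was 7.472, against 8.722 to 8.857. In KT replicate 4, *Igf1r* was 8.349, against 6.726 to 6.946, and *Igfbp1* was 6.09, against 8.104 to 8.242. *Igfbp6* in IT replicate 4 was 5.417, against 6.557 to 6.765.

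In KC replicate 3, *Igf2r* was 7.277, against 9.902 to 10.16, *Igfbp3* was 6.113, against 7.282 to 7.36, and *Igfbp5*, not well above background, was 3.834, against 2.351 to 2.47. *Igfbp6* in TP replicate 2 was 14.88, against 14.53 to 14.59. The last cases were not well above background in any channel of the group. *Igfbp3* in TM replicate 4 was 3.25, against 2.152 to 2.182, and *Igfbp5* in IC replicate 3 was 3.048, against 2.405 to 2.444.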

How the results depend on the processing

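Of 27 differences called, 20 remained called under all 15 settings other than the study's thresholds, among them all 14 between tumor and Kupffer cells, and none reversed. The setting with another choice of probe returned the same lead probes, so it repeated the main fit and could not change a call. *Igfbp3* between EC and IC was kept under 10 of 15, *Igf1r* and *Igfbp2* between KC and EC under 7 and 9, *Igfbp2* between KC and IC and between KT and IT under 8 and 9, and *Igfbp1* in these last comparisons under 14 each. Between TME and control endothelial cells the count of genes called was 0, but 1 with 75th percentile scaling, 2 with only the 2 groups compared, 1 in the methods' t-test and 1 without control Kupffer replicate 3 and TME Ito replicate 2. With only the 2 groups compared it was 5 between EC and IC, 1 between KC and IC, 4 between KT and ET, 1 between KT and IT and 6 for the 40 pathway genes (3 otherwise). In the methods' t-test it was 1 between KC and EC, 0 between KC and IC and 0 between KT and IT, and under the study's thresholds 0, 1 and 0, with 1 between KT and ET and 1 for the pathway genes. With the array as a random block it was 1 between KC and EC. Leaving out each replicate in turn gave 0 to 2 genes for TME against control in Ito and in Kupffer cells, 0 to 2 between KC and EC, 1 to 2 between KC and IC, 2 to 4 between KT and ET, 1 to 3 between KT and IT and 1 to 7 pathway genes. Alternatives chosen after seeing the data left out the Ito and Kupffer arrays of replicate 4, which gave 2 genes in Ito and 2 in Kupffer TME, 4 between KC and EC, 1 between KC and IC, 4 between KT and ET, 1 for the difference of the TME change and 9 pathway genes, or left out control Kupffer replicate 3 and TME Ito replicate 2, which gave 4 between KT and ET and 4 between KT and IT. The cause of these changes was not tested, apart from the fewer samples of some settings. The share of all probes called moved as well. For TME against control it was 0.289% in Ito and 0.436% in Kupffer cells with all samples. Without replicate 4 it was 7.83 and 3.45%. For the other settings the share is not given, so a changed count there cannot be read as particular to the members or the pathway.

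With the array that paired samples share as a replicate block, the count stayed 0 for TME against control in each cell type and for TP against TM, and 2 pathway genes were called. With 75th percentile scaling the median of all probes moved to 0.50 between TM and KC, 0.61 between TP and KT, -0.30 between EC and IC and -0.30 between ET and IT, and the differences named kept their direction. Signal over background limits *Igf2*, *Igfbp5* and, in tumor cells, *Igfbp1* to *Igfbp3* to bounds, and 4 samples a group limit the precision.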
